A study of Mus musculus with 24 samples.

Results

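The comparison described here is the Smad2 knockout against wild type in embryoid bodies at day 4, taken across all genes. Its members are the 4 RNA libraries titled as wild-type or Smad2 knockout embryoid bodies at day 4, 2 a group, out of 10 RNA libraries and 24 samples in the series. All were derived from E14Tg2a.IV, a mouse embryonic stem cell line. The wild-type libraries carry the genotype "Wild type" and the knockout libraries "Smad2-/-". Embryoid bodies are floating aggregates of stem cells that differentiate. The labels give medium without LIF, the cytokine that holds mouse embryonic stem cells in self-renewal, for the embryoid bodies of the ChIP-seq samples, and for the RNA samples they give the day and genotype with no Activin or inhibitor named. Smad3 knockout, Smad2/3 double knockout (both day 4) and undifferentiated wild-type cells (day 0), each with 2 libraries, are used below only where the Smad2 knockout is compared with them. The file names of both Smad2 knockout libraries carry the same line number, so the effect of the allele and that of this line cannot be told apart, and the labels do not tell whether replicate libraries stem from separate cultures. The p-values therefore measure the spread between these libraries.

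SMAD2 and SMAD3 are the transcription factors that Nodal, Activin and TGF-beta receptors phosphorylate. They enter the nucleus with SMAD4 and act on genes with partners such as FOXH1. In the mouse embryo Nodal signalling is required for mesoderm and definitive endoderm. SMAD2 itself is required for definitive endoderm and for the anterior visceral endoderm, which patterns the epiblast. BMP signalling, carried by SMAD1 and SMAD5, favours extraembryonic and posterior fates.

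The 4 libraries held 42286369 and 40950959 expected counts (wild type) and 40252240 and 53672980 (Smad2 knockout), and 19470 genes were tested. Levels are given as CPM, read counts scaled per library by its TMM-adjusted total, library 1 before library 2, and are comparable between libraries for 1 gene, not between genes. A gene was called higher or lower in the knockout when its adjusted p was under 0.05 (edgeR quasi-likelihood test, Benjamini-Hochberg over all genes tested). Of all genes tested 6904 (35.5%) were called, 2993 higher (15.4%) and 3911 lower (20.1%). The counts for gene lists below are read against those shares.

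Smad2 itself (chromosome 18, 76241580 to 76310963, mm10) stood at 49.9 and 38.3 CPM in wild type and 19.2 and 20.4 CPM in the knockout. Both knockout libraries lay below both wild-type libraries, and the log2 fold change was -1.16 (SE 0.18), with adjusted p = 0.00245. Smad2 RNA was reduced and not absent, and a gene-level count does not show whether the remaining transcripts carry an edit. Smad3 (chromosome 9, 63646767 to 63757994) stood at 42.0 and 44.9 CPM in wild type and 30.8 and 31.0 in the knockout, a difference of -0.49 on the log2 scale (SE 0.16, adjusted p = 0.0405) that was no longer called without any 1 of the 4 libraries (adjusted p = 0.0576 to 0.109). Smad3 was also not called without the filter on low counts (adjusted p = 0.149) or with the compared groups alone (0.287), and with the offset its difference was 0.15 (adjusted p = 0.37).

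Library composition differed between the groups before any pathway is considered. Ribosomal protein genes held 14.7 and 13.96% of the counts in the Smad2 knockout and 6.17 and 7.55% in wild type at day 4. The mean length of the gene behind a count was 2072 and 2137 bases in the knockout and 2937 and 2788 in wild type. The day 0 libraries stood at 17.21 and 12.81% ribosomal protein counts and 1905 and 2107 bases, whereas the Smad3 and double knockout libraries stood at 6.55 to 8.57% and 2742 to 2953 bases. In both measures the Smad2 knockout libraries lay outside the range of the other 6 day 4 libraries and, for ribosomal protein counts, within the range of the day 0 libraries.

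The fold change against wild type followed gene length across genes. Over 12615 genes Spearman's rho between log2 fold change and length was -0.65 (-0.59 for the first libraries of each group, -0.63 for the second), and rho with GC content was 0.44. Genes share libraries, so no p is given. Among the 4868 genes with the shortest models (105 to 1334 bases) 1630 were called higher and 198 lower. Among the 4868 with the longest (3402 to 123179 bases) 143 were called higher and 2402 lower. A second fit removed a smooth relation of each library to length and GC content (called the length and GC offset below), after which rho with length was -0.03, 5466 genes (28.1%) were called, 3484 higher and 1982 lower, and 3172 of the calls were shared with the same direction. Of the 6904 calls 1097 changed sign under the offset and 157 were called in the opposite direction. Whether the length relation comes from the cells or from library preparation was not tested. Where the offset ends or turns the call of a gene described below, its value or adjusted p is given.

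**Figure D1:**
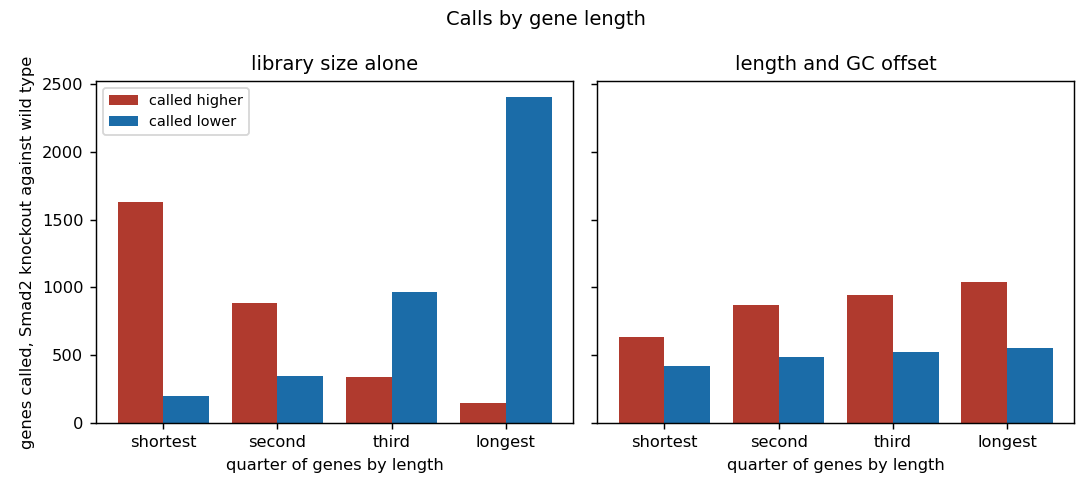
Number of genes called higher (red bars) and lower (blue bars) in the Smad2 knockout against wild type, in 4 equal classes of gene length, without (left) and with (right) the length and GC offset. Without the offset the longest class held 2402 lower and 143 higher calls and the shortest 198 lower and 1630 higher, while with it higher calls outnumbered lower calls in all 4 classes.

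Y-linked genes were a further difference. Uty stood at 28.7 and 18.4 CPM in wild type and had no count in either knockout library, at least 666-fold lower. Eif2s3y, a translation factor subunit gene, stood at 75.5 and 50.9 CPM in wild type and at 0 and 0.064 CPM in the knockout, and Ddx3y, an RNA helicase gene, at 41.3 and 18.5 against 0 and 0.107. Uty was at 10.5 and 8.29 CPM in the Smad3 knockout, and at 0.353 and 0 in the double knockout. The Smad2 knockout libraries were therefore almost without Y-linked transcripts; these 3 genes were also at 0 in double knockout library 2. The part of this in the other differences was not tested.

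The effect on Nodal signalling was examined first, from ligands to targets. Of 17 genes tested for ligands, antagonists and feedback of the pathway, 4 were called lower and 1 higher (median log2 fold change 0.05). On log2(TPM + 1), where the median of all genes lay at -0.51, 10 of 15 were lower and none higher (median -1.40). The same scale was also centred on each library's median, an alternative chosen after seeing the data. Centred, 6 were lower and 2 higher (median -0.70). With the offset 4 were higher and 6 lower (median -0.41), and without wild-type library 2, 6 were higher and 3 lower (median 0.27). Nodal, the ligand, stood at 42.1 and 85.3 CPM in wild type and 50.6 and 25.3 in the knockout, overlapping groups with a log2 difference of -0.75 (adjusted p = 0.149). Gdf3, a ligand that works with Nodal, stood at 13.8 and 14.6 CPM in wild type and 22.3 and 24.6 in the knockout, a log2 difference of 0.72 (SE 0.18, adjusted p = 0.0139; 0.0541 without knockout library 2), but on the log2(TPM + 1) scale the value was -0.04. Tdgf1, the Nodal co-receptor Cripto, was lower, at 538 and 425 CPM in wild type and 255 and 210 in the knockout (log2 fold change -1.05, adjusted p = 0.00409). With the compared groups alone neither Tdgf1 (adjusted p = 0.052) nor Gdf3 (0.159) was called.

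Feedback inhibitors and a co-repressor were among the lower genes. Cer1, a secreted antagonist of Nodal, BMP and WNT made by anterior endoderm, stood at 23.6 and 23.4 CPM in wild type and at 0 and 0.0427 CPM in the knockout. The knockout level rests on 2 counts over both libraries, which puts the ratio of wild type to knockout at 994 (95% exact interval 275 to 8210, counting error only), with adjusted p = 0.000132. Lefty1, an extracellular Nodal inhibitor, stood at 37.1 and 103 CPM in wild type and 20.9 and 20.2 in the knockout (log2 fold change -1.77, SE 0.50, adjusted p = 0.0235). That call was lost without wild-type library 2 (adjusted p = 0.0888) and without either knockout library (0.103 and 0.104). Lefty2, its paralog, gave 80.3 and 96.9 against 30.3 and 19.5 CPM, groups that did not overlap, and missed the threshold (log2 difference -1.83, adjusted p = 0.0566). Skil, a SMAD corepressor induced by the pathway, fell from 375 and 254 to 86.1 and 90.5 CPM (-1.83 on the log2 scale, SE 0.21, adjusted p = 0.000904), with an offset value of -0.41 (adjusted p = 0.0498).

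Cer1 and Lhx1, a LIM-homeobox gene of the organizer and anterior endoderm described further below, both fell more than any other member of their lists, so the 250 bases before their starts are printed (RefSeq, GRCm38.p6, transcript strand, 5′ to 3′). Capitals mark the SMAD box, CAGAC on either strand.
Cer1, chr4:82885152-82885401, minus strand: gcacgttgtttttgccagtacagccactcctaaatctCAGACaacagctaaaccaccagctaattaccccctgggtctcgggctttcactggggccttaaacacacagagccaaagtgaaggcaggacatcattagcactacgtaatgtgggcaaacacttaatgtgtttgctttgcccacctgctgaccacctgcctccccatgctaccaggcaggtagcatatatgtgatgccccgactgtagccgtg
Lhx1, chr11:84525535-84525784, minus strand: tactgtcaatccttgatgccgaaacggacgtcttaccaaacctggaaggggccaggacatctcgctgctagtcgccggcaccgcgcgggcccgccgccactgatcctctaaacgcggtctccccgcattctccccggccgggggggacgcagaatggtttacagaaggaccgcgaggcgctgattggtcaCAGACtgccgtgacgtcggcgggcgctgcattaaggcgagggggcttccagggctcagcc
Each stretch held 1 SMAD box, which began 213 bases before the start in Cer1 and 60 bases before it in Lhx1, and no match to AATNCACA, the FOXH1 letters. A SMAD box is common: 49.6% of all 32851 promoter windows of 300 bases held one, against 47.9% of 96 windows of listed genes called lower and 48.3% of 207 windows of listed genes called higher. For AATNCACA the shares were 3.6, 3.12 and 2.9%. The letters therefore did not separate lower from higher genes in these windows, and 39 lower and 72 higher listed genes had no window.

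Receptors, SMADs and cofactors gave 10 lower and 0 higher calls of 20 tested, with a median log2 fold change of -0.71. These genes are long (median 4366 bases), and with the offset 5 were lower and 3 higher, with a median of 0.09. Smad4, the common partner, went from 119 and 107 to 72.2 and 56.7 CPM (log2 fold change -0.81, adjusted p = 0.00659; offset -0.33, adjusted p = 0.0911). The type I receptor gene Tgfbr1 (70.9 and 43.2 against 27.6 and 21.9 CPM; log2 fold change -1.20) and the activin receptor gene Acvr2a (37.5 and 21.8 against 14.3 and 13.5; -1.09) were called lower and had offset values of 0.10 and 0.21, neither called. Acvr2a was also not called without wild-type library 1 (adjusted p = 0.0869) or without either knockout library (0.0564 and 0.063). Trim33, a nuclear SMAD cofactor, kept its call (307 and 200 against 70.9 and 98.4 CPM; -1.58, adjusted p = 0.00215; offset -0.50, adjusted p = 0.029). Foxh1 was not called (33.0 and 82.5 against 37.3 and 34.6 CPM; adjusted p = 0.185), and its offset value was -1.58 (adjusted p = 0.000378).

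Primitive streak genes did not give a common answer because the knockout libraries differed from each other. Of 16 genes tested for streak and nascent mesoderm, 1 was called higher and 1 lower. Brachyury (T), the T-box factor of the streak, stood at 90.3 and 106 CPM in wild type, 74.3 in knockout library 1 and 0.79 in knockout library 2. Mixl1, a streak homeobox gene, stood at 51.3 and 47.1 CPM in wild type and at 22.6 and 0.0854 in the knockout. Evx1 (5.3 and 11.2 CPM in wild type) was at 12.6 and 0.427 CPM, Sp5, a WNT-induced factor (9.19 and 25.6), at 16.7 and 0.363, and Fgf8, the streak growth factor (16.7 and 59.8), at 40.4 and 2.07. In each of these 5 genes knockout library 2 lay far below both wild-type libraries and below knockout library 1, and none was called (adjusted p = 0.208 to 0.813). Mesp1, a marker of nascent mesoderm, stood at 1.21 and 2.88 CPM in wild type and 6.3 and 0.0854 CPM in the knockout.

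The split covered much of the list. Read from file names, the knockout libraries 1 and 2 came from different submissions, as did the wild-type libraries 1 and 2. Differences between the knockout libraries, here and below, therefore cannot be told apart from submission. In knockout library 1, 9 of the 16 streak genes exceeded library 2 by over 4-fold (on CPM + 1), and none was that much lower. Over all genes tested 42 (0.216%) were that much higher in library 1 and 23 (0.118%) in library 2. In wild type 17 genes (0.0873%) were that much higher in library 1 and 111 (0.57%) in library 2, and no streak gene was among them. Without knockout library 1, 8 streak genes were called lower and 0 higher, and without library 2, 2 were lower and 3 higher. WNT targets and ligands shared the split to a lesser degree, with 4 of 14 genes over 4-fold higher in library 1, Rspo3 (8.25 and 5.99 CPM in wild type; 11 and 0.171 in the knockout) among them. Fst, which encodes the activin-binding protein follistatin, followed the same pattern (102 and 76.4 CPM in wild type; 39.2 and 1.98 in the knockout).

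**Figure D2:**
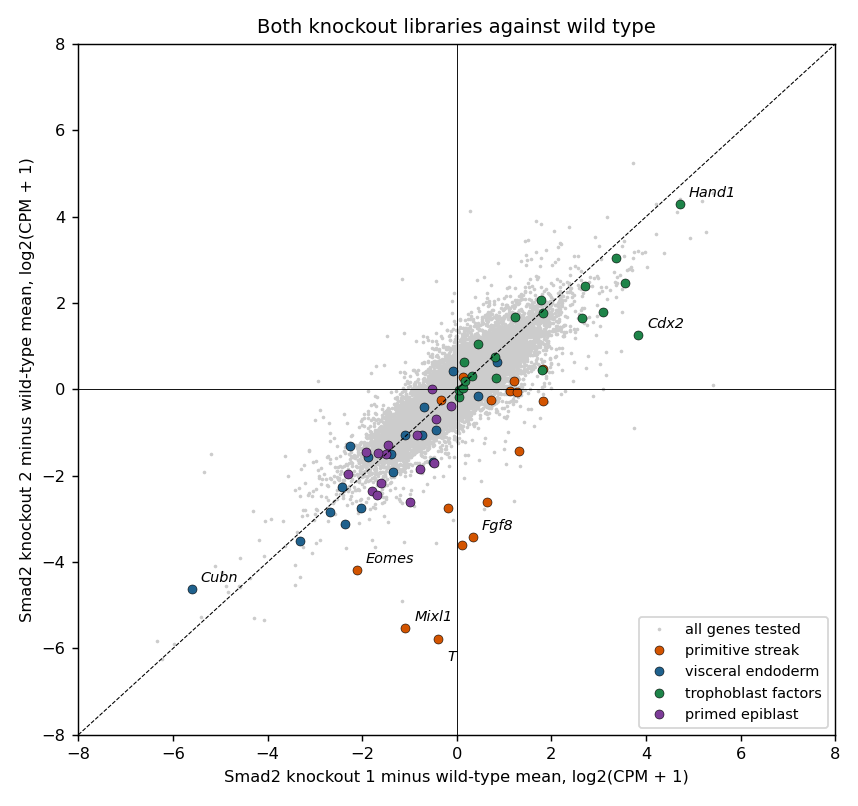
Each tested gene by its difference from the wild-type mean in knockout library 1 (horizontal) and library 2 (vertical), both on log2(CPM + 1), with 4 gene lists coloured and the diagonal dashed. Most genes lie along the diagonal, whereas T, Mixl1, Fgf8 and other streak genes lie below it, with far lower values in library 2 than in library 1.

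Eomes was the 1 streak gene called lower. This T-box factor, required for mesoderm migration and definitive endoderm, stood at 218 and 215 CPM in wild type and 49.3 and 10.9 CPM in the knockout (log2 fold change -2.85, SE 0.54, adjusted p = 0.0047). With 1 knockout library left out, its adjusted p was 0.000377 and 0.002; in these fits the lone library is assumed to vary like the other groups. Cdx1, a posterior homeobox gene, was the only streak gene called higher (0.252 and 0.832 against 4.37 and 1.09 CPM; log2 fold change 2.32, adjusted p = 0.0307), and not without knockout library 1 (adjusted p = 0.274) or wild-type library 1 (0.12), nor with the offset (1.55, adjusted p = 0.081).

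Of 11 genes of the organizer and axial mesendoderm tested, 7 were called lower and none higher with all libraries (median log2 fold change -1.69). Both knockout libraries lay below both wild-type libraries in 7 of the 11 and above them in 1. The knockout libraries differed here too. Past 2-fold on CPM + 1, 5 of the 11 were higher in knockout library 1 and 0 in library 2 (median log2 ratio 0.72). The median fold change was -1.96 without knockout library 1 and -1.76 without library 2. Foxa2, a forkhead factor of node and endoderm, stood at 27.1 and 40.4 CPM in wild type and 2.2 and 0.469 in the knockout (log2 fold change -4.68, SE 0.71, adjusted p = 0.00219). Lhx1 stood at 38.2 and 47.7 CPM in wild type and 1.59 and 0.0854 in the knockout (-5.73, SE 0.86, adjusted p = 0.00264). Otx2, needed for anterior identity, was at 242 and 209 against 58.5 and 81.6 CPM (-1.69, adjusted p = 0.000919). Chrd, which encodes the BMP antagonist chordin, was at 8.03 and 17.8 against 2.01 and 2.35 CPM (-2.56, adjusted p = 0.00229). The head-organizer gene Gsc (2.61 and 14.7 against 2.01 and 0.832 CPM; -2.61, adjusted p = 0.0223) rested on wild-type library 2 and was not called without it (adjusted p = 0.209) or without knockout library 2 (0.125).

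Definitive endoderm regulators were lower as a group, 11 of 16 tested and none higher, with the same 11 lower and 0 higher counts under the offset. Sox17, a core endoderm factor, went from 6.43 and 13.2 to 2.41 and 1.09 CPM (log2 fold change -2.49, SE 0.50, adjusted p = 0.00573). The GATA factors that specify endoderm were lower together, Gata6 from 15.4 and 17.4 to 1.93 and 1.34 CPM (-3.32, SE 0.29) and Gata4 from 25.8 and 35.9 to 4.87 and 2.58 CPM (-3.05, SE 0.32). Cxcr4, the chemokine receptor used to sort definitive endoderm, went from 4.94 and 5.51 to 1.22 and 1.05 CPM (-2.21, adjusted p = 0.00302). These regulators are used by both endoderm lineages. The epithelial genes of the list, Epcam (174 and 207 against 230 and 261 CPM) and Cldn6 (207 and 277 against 257 and 218), were not called.

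Visceral endoderm, the epithelium around the embryo that takes up maternal nutrients and later lines the yolk sac, had lower levels of uptake receptors, regulators and secreted products. Of 18 regulators, receptors and matrix genes 12 were lower and 1 higher (median -1.77), and of 15 yolk sac secreted genes 10 were lower and 1 higher (median -1.46). Cubn, which encodes the uptake receptor cubilin, fell from 334 and 266 to 5.14 and 11.1 CPM (log2 fold change -5.20, SE 0.43, adjusted p = 0.000324). Dab2, an endocytic adaptor gene, fell from 245 and 207 to 21.8 and 18.8 CPM (-3.48, SE 0.27, adjusted p = 0.000245). Apob, the structural protein of lipoproteins, fell from 199 and 133 to 1.03 and 1.88 CPM (-6.81, SE 0.39, adjusted p = 9.49e-05), and Mttp, which loads lipid onto it, from 55.5 and 42.9 to 8.55 and 8.81 CPM (-2.50, adjusted p = 0.000606). Afp (46.5 and 38.4 against 3.07 and 1.6 CPM; -4.19) and Ttr (12.3 and 20.4 against 1.56 and 1.05 CPM; -3.65), carriers secreted by yolk sac endoderm, fell as well. In bulk RNA, fewer visceral endoderm cells and less RNA per cell cannot be told apart.

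A long uptake gene of this lineage depended on the offset. Lrp2, which encodes the uptake receptor megalin, was at 533 and 492 against 138 and 171 CPM (-1.73), with an offset value of -0.31 (adjusted p = 0.0661). Cubn, also long, kept its fall (offset -3.61, adjusted p = 0.00044). The summed level of the secreted list was 536 and 931 CPM in wild type and 493 and 895 in the knockout, which includes Apoe, not called (183 and 631 against 447 and 832 CPM). Apoc1 was the called exception among the secreted genes, higher at 18.2 and 34.8 CPM against 7.57 and 10.2 (1.58, adjusted p = 0.00659), and not called with the offset (0.46, adjusted p = 0.266).

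**Figure D3:**
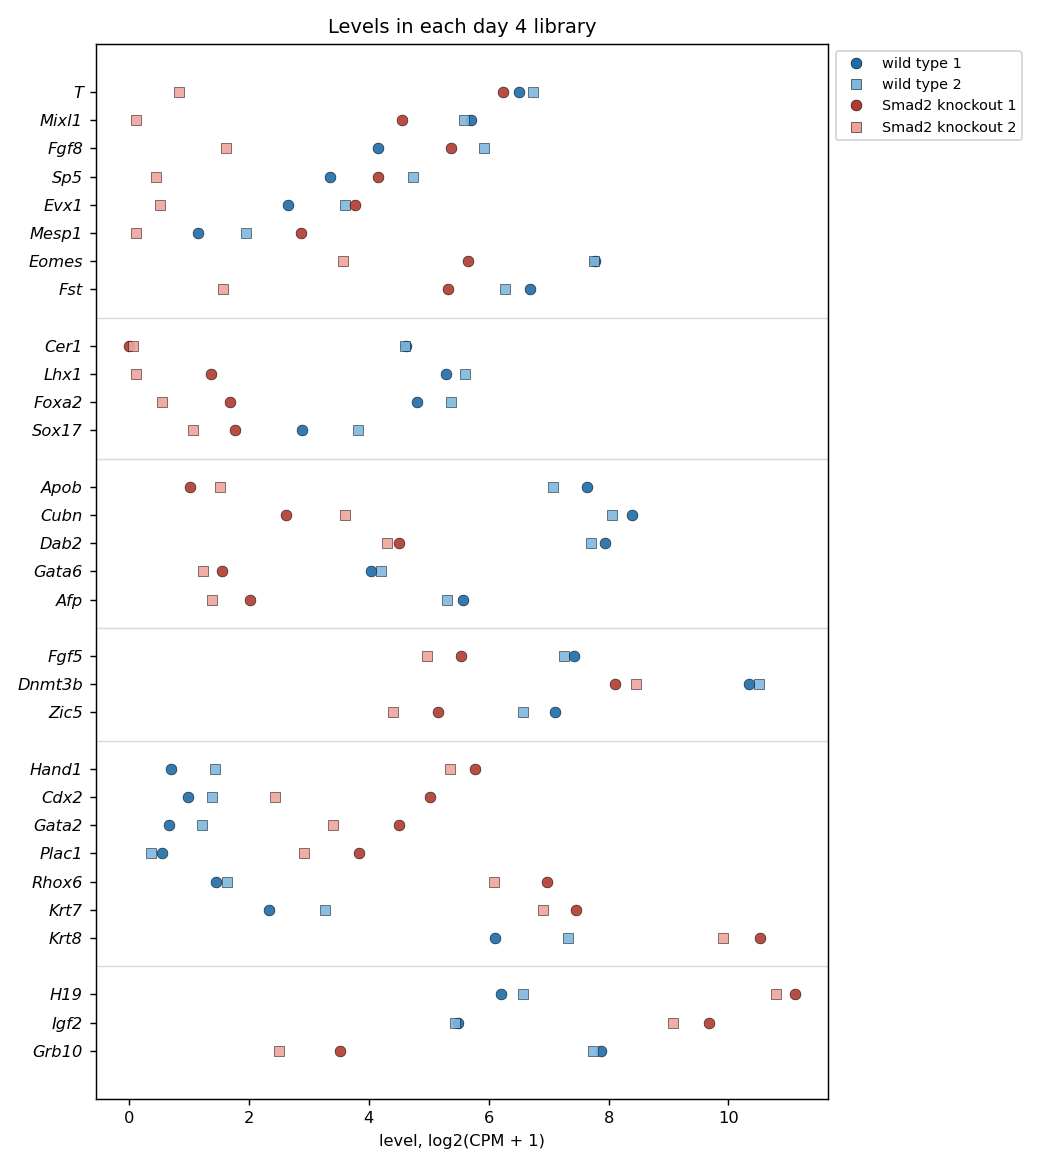
Levels of genes named in the text in the 4 day 4 libraries, on log2(CPM + 1), with wild type in blue, the Smad2 knockout in red, library 1 as circles and library 2 as squares. In the first block the knockout libraries stand apart from each other for T, Mixl1, Fgf8, Sp5, Evx1 and Mesp1, and in the blocks below both knockout libraries lie on the same side of both wild-type libraries.

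Primed epiblast genes, which mark the state that cells pass through on leaving naive pluripotency, were lower. Of 15 tested, 12 were called lower and none higher (median log2 fold change -1.51), and the offset gave 12 and 0. Fgf5, the classical marker of this state, stood at 170 and 152 CPM in wild type and 45.6 and 30.4 in the knockout (-2.08, SE 0.21, adjusted p = 0.000567). The de novo DNA methyltransferase gene Dnmt3b stood at 1290 and 1450 CPM in wild type and 276 and 352 in the knockout (-2.13, SE 0.19, adjusted p = 0.000332). Zic5 (137 and 94.6 against 34.8 and 20.2 CPM; -2.07) and Zic2 (86.2 and 127 against 33.7 and 22.4; -1.92), zinc-finger factors of epiblast and neural plate, were lower. Fgf5 was at 0.926 and 0.79 CPM in the day 0 libraries, so the knockout level lay between day 0 and wild-type day 4, above day 0 with a log2 fold change of 5.47 (adjusted p = 1.35e-05).

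Naive pluripotency genes were higher by calls, 11 of 20 tested and none lower (median 1.02; 15 and 0 with the offset), but the counts rested on knockout library 2. Without library 1, 15 were called higher, without library 2 only 2 were, and on the log2(TPM + 1) scale, where the median of all genes lay at -0.51, 2 were higher and 2 lower. After centring that scale, 11 were higher and 1 lower (median 0.88). Dppa3 (Stella), expressed in naive and germ cells, stood at 6.97 and 6.58 CPM in wild type and 21.2 and 84.3 in the knockout (2.96, SE 0.53, adjusted p = 0.00393). Zfp42 (Rex1) stood at 60.5 and 58.8 against 86.5 and 193 CPM (1.23, adjusted p = 0.0162), and Klf4 at 6.17 and 10.9 against 13.3 and 25.9 (1.20, adjusted p = 0.0284). Without knockout library 2 neither Zfp42 (adjusted p = 0.0795) nor Klf4 (0.209) was called, and Klf4 was not without wild-type library 1 (0.0928). Neither was called with the compared groups alone (Zfp42 adjusted p = 0.0597, Klf4 0.0962) or on log2(TPM + 1), where Zfp42 differed by 0.40 (adjusted p = 0.31) and Klf4 by 0.38 (0.348). Esrrb, at 58.3 and 84.1 against 51.4 and 175 CPM, was not called. In these genes knockout library 2 was the higher of the 2, the reverse of the streak genes. The summed level of the list was 1610 and 3180 CPM in the knockout, 1040 and 1020 in wild type at day 4 and 8300 and 6490 at day 0.

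The 3 core pluripotency factors were not called. Pou5f1 (Oct4) stood at 424 and 860 CPM in wild type and 790 and 857 in the knockout (adjusted p = 0.364), Sox2 at 165 and 161 against 156 and 206 (adjusted p = 0.604), and Nanog at 266 and 228 against 199 and 186 (adjusted p = 0.12). Of 13 tested, 3 were lower and 1 higher, and of the lower ones Lin28b (98.9 and 69.1 against 33.9 and 28.7 CPM; -1.42) and Rif1 (612 and 378 against 90.9 and 179; -1.87) were not called with the offset (Lin28b -0.14, adjusted p = 0.517; Rif1 -0.46, adjusted p = 0.195). Dnmt3l, the cofactor of de novo methylation, moved opposite to Dnmt3b, from 66.8 and 90.6 to 191 and 310 CPM (1.67, SE 0.26, adjusted p = 0.00236).

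Transcription factors of the trophoblast, the extraembryonic lineage that forms the placenta, were higher. Of 20 tested, 14 were called higher and none lower (median 2.10), with 14 and 0 under the offset. Of 15 tested on log2(TPM + 1), 10 were higher and 1 lower. Hand1, a helix-loop-helix factor of giant cells and of extraembryonic and lateral mesoderm, rose from 0.617 and 1.69 to 53.5 and 39.8 CPM (5.34, SE 0.44, adjusted p = 0.00031). Gata2 rose from 0.595 and 1.33 to 21.6 and 9.6 CPM (4.02, SE 0.48, adjusted p = 0.000931) and Gata3 from 0.617 and 0.808 to 9.72 and 4.4 CPM (3.30, adjusted p = 0.000961). Esx1, a placental homeobox gene, rose from 1.39 and 2.42 to 28.5 and 22.5 CPM (3.74, adjusted p = 0.000246). Cdx2, the trophectoderm factor, was unequal between the knockout libraries, at 31.4 and 4.44 CPM against 0.983 and 1.62 in wild type (3.78, SE 0.76, adjusted p = 0.00612), and stayed called without either. Elf5, a trophoblast stem cell factor, was called higher at a low level (0.0686 and 0.0475 against 0.847 and 0.768 CPM; 3.73, adjusted p = 0.0046).

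Products of trophoblast cells were higher as a group, with markers of differentiated placental cells near 0. Of 20 tested, 12 were higher and none lower (median 2.64). Plac1, a placental membrane protein gene, rose from 0.457 and 0.285 to 13.3 and 6.57 CPM (4.73, SE 0.53, adjusted p = 0.000799), Wnt7b from 1.92 and 2.4 to 24.3 and 30.4 (3.66, adjusted p = 0.00017) and Lgals3 from 3.48 and 4.73 to 60.5 and 33.6 (3.52, adjusted p = 0.000359). The giant cell hormone gene Prl3d1 was at 0.106 and 0 CPM in the knockout, Prl3b1 at 0.0265 and 0.107, and Tpbpa, the spongiotrophoblast marker, at 0.397 and 0.064 with no count in wild type. Tpbpa was called (edgeR, adjusted p = 0.038), but not with DESeq2 (adjusted p = 0.171), with the replicate block (adjusted p = 0.0536), without knockout library 1 (adjusted p = 0.126) or without either wild-type library (0.0899 and 0.0656). The summed level of the list was 284 and 240 CPM in the knockout and 113 and 108 in wild type.

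The Rhox cluster, X-linked homeobox genes of placenta and gonad, held the largest rises among the listed genes of at least 5 CPM. Rhox6 stood at 1.74 and 2.09 CPM in wild type and 124 and 67.2 in the knockout (5.64, SE 0.39, adjusted p = 0.00017), and Rhox9 at 0.846 and 1.16 against 71.1 and 39.8 (5.78, SE 0.39, adjusted p = 0.00017). Of 11 Rhox genes tested 8 were higher and none lower, and 3 with the offset. Rhox5 was called higher by a small margin (20.2 and 19.2 against 25.0 and 46.6 CPM; 0.86, adjusted p = 0.038), not without knockout library 2 (adjusted p = 0.285) or either wild-type library (0.0625 and 0.0748), and its offset value was -0.02. Near copies within the cluster can share reads, so the values of single members are uncertain.

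Keratins of simple epithelia rose in both libraries. Of 12 simple and basal epithelial keratin genes tested, 7 were higher and none lower (median 2.54), also 7 and 0 with the offset. Krt8 stood at 67.7 and 159 CPM in wild type and 1480 and 960 in the knockout (3.43, SE 0.40, adjusted p = 0.000928), and its dimer partner Krt18 at 132 and 218 against 1090 and 805 (2.44, adjusted p = 0.000931). Krt7, typical of trophoblast and glandular epithelia, stood at 4.05 and 8.7 against 175 and 119 CPM (4.52, SE 0.37, adjusted p = 0.00031), and Krt19 at 15.5 and 41.4 against 428 and 189 (3.44, adjusted p = 0.00191). The epidermal keratin genes Krt5 (0.212 and 0.384 CPM in the knockout) and Krt14 (0.424 and 0.341) were not called. The other basal keratins of the list are not described here. The 250 bases before the starts of Krt8 and Krt7 are printed because both genes are on chromosome 15 and rose together, with capitals for SMAD boxes, for the GATA letters AGATAA and for the TFAP2 letters GCCNNNGGC.
Krt8, chr15:102004343-102004592, minus strand: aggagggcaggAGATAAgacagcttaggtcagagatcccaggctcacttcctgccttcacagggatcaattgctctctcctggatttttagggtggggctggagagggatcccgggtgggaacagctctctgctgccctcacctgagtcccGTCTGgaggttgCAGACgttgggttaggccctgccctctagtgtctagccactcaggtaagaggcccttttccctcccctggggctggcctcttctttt
Krt7, chr15:101412153-101412402, plus strand: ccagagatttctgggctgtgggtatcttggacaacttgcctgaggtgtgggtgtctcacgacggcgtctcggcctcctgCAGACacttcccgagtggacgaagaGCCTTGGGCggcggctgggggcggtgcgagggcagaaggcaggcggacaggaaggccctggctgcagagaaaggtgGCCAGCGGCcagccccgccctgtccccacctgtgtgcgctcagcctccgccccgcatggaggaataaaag
Krt8 held 2 SMAD boxes and 1 AGATAA, and Krt7 held 1 SMAD box and 2 matches to GCCNNNGGC. AGATAA was in 11.2% of all windows in 8.21% of those of 207 listed genes called higher and in 8.33% of those of 96 called lower. GCCNNNGGC was in 16.6, 17.4 and 22.9%. Tfap2c, which encodes a TFAP2 factor of trophoblast and germ cells, rose from 23.8 and 27.6 to 61.2 and 84.4 CPM (1.5, adjusted p = 0.00113).

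Surface ectoderm genes were mixed. Of 14 tested, 6 were higher and 2 lower (median 1.00). On log2(TPM + 1), where the median of all genes lay at -0.51, 2 of 10 were higher and 2 lower (median -0.14). Centred, 4 were higher and none lower (median 0.56). Sfn, an epithelial 14-3-3 protein gene, rose from 12.1 and 42.4 to 210 and 123 CPM (2.61, SE 0.51, adjusted p = 0.00537), and Perp, a desmosome gene, from 22.5 and 18.5 to 57.4 and 34.7 (1.17, adjusted p = 0.00612). Trp63, the master factor of stratified epithelia, was called higher at a low level (0.0457 and 0.0238 against 1.19 and 0.661 CPM; 4.61, adjusted p = 0.00488). Itga6 was lower (144 and 122 against 72.3 and 99.9 CPM; -0.63, adjusted p = 0.0283), was not called without library 1 of either group (adjusted p = 0.12 and 0.136) and stood at 0.02 with the offset. On log2(TPM + 1) Perp was not called (adjusted p = 0.247).

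BMP ligands and targets gave 5 higher and 2 lower calls of 18 tested (median 0.69). The counts were 4 higher and 5 lower without knockout library 1, 6 and 0 without library 2, and 9 and 0 with the offset. On log2(TPM + 1), where the median of all genes lay at -0.51, they were 3 and 2 of 13 (median -0.06). After centring they were 5 and 1 (median 0.64). Bmp4 rose from 3.59 and 5.44 to 16.1 and 17.2 CPM (1.88, SE 0.28, adjusted p = 0.00212) and Bmp8b from 1.21 and 1.5 to 8.26 and 8.64 (2.64, SE 0.29, adjusted p = 0.000764). The inhibitor of differentiation genes, which BMP signalling induces through SMAD1 and SMAD5, were higher for Id2 (9.35 and 10.0 against 50.9 and 33.9 CPM; 2.13, adjusted p = 0.000567) and Id1 (8.35 and 25.5 against 97.1 and 56.8; 2.19, adjusted p = 0.0118; 0.0701 without knockout library 1), and not called for Id3 (10.1 and 40.3 against 91.2 and 40.0; adjusted p = 0.09). The receptor gene Bmpr2 was called lower, at 66.9 and 36.2 against 28.3 and 21.2 CPM (-1.06, adjusted p = 0.0198), and with the offset it was called higher (0.76, adjusted p = 0.0062). Its lower call was lost without wild-type library 1 (adjusted p = 0.152) and knockout library 2 (0.111). On log2(TPM + 1) Bmp4 stood at 0.20 and was not called (adjusted p = 0.587).

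FGF and ERK feedback genes were lower, 6 of 14 tested and none higher (median -0.80; offset 7 lower and 1 higher). Il17rd (Sef), a feedback inhibitor of FGF receptors, went from 218 and 200 to 53.2 and 43.1 CPM (-2.12, SE 0.19, adjusted p = 0.000332), and Fgf15 from 24.1 and 27.8 to 10.1 and 7.3 (-1.58, adjusted p = 0.00206). Dusp6, the ERK phosphatase gene, went from 116 and 121 to 58.5 and 46.8 CPM (-1.17, adjusted p = 0.00286) and the ETS factor gene Etv5 from 274 and 311 to 111 and 139 (-1.22, adjusted p = 0.00174). Of 14 WNT genes tested 6 were lower and 1 higher, and 10 were lower without knockout library 1. Axin2, a general WNT target, stood at 28.2 and 46.6 CPM in wild type and 16.0 and 6.64 in the knockout (-1.73, SE 0.40, adjusted p = 0.011). Notum, which encodes a secreted WNT deacylase, was the called exception at 0.869 and 1.78 against 7.33 and 3.52 CPM (2.03, adjusted p = 0.00702; 0.0633 on log2(TPM + 1)).

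Mesenchymal and smooth muscle genes were higher, 11 of 18 tested against 3 lower (median 1.62; 12 and 2 with the offset). Of 13 tested on log2(TPM + 1), where the median of all genes lay at -0.51, 5 were higher and 2 lower (median 0.36). Centred, 7 were higher and 1 lower (median 1.06). Col1a2, which encodes a fibrillar collagen chain, rose from 2.61 and 3.38 to 23.6 and 22.1 CPM (2.93, SE 0.25, adjusted p = 0.000328), and Col1a1 from 1.03 and 4.45 to 16.3 and 17.5 (2.63, SE 0.55, adjusted p = 0.00725). Their offset values were larger, 4.02 and 3.28. Acta2, smooth muscle actin, rose from 6.2 and 8.56 to 66.6 and 22 CPM (2.58, adjusted p = 0.00362). Cdh11, a mesenchymal cadherin, was lower (21 and 16.3 against 2.86 and 0.533 CPM; -3.47, SE 0.62, adjusted p = 0.00383). The N-cadherin gene Cdh2, a member of the neuroectoderm list and not of this one, was also lower (59.0 and 54.8 against 18.8 and 6.61 CPM; -2.17, adjusted p = 0.00659; -1.24 with the offset, adjusted p = 0.0525). The neuroectoderm list gave 2 higher and 4 lower calls of 18 tested, 33.3% called against 35.5% of all genes.

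Mesodermal and positional genes changed in part. Of 17 lateral mesoderm, cardiac and blood genes tested, 4 were higher and 3 lower (median 0.55). This is 41.2% called, against 35.5% of all genes. With the offset 0 were higher and 4 lower (median 0.81). Among the lower genes were Kdr, the VEGF receptor gene of blood and vessel progenitors (4.3 and 4.75 against 0.927 and 0.576 CPM, log2 fold change -2.60, adjusted p = 0.00248), and Tal1 (0.663 and 0.927 against 0.238 and 0.213, log2 fold change -1.81). Both stayed under 5 CPM in wild type and knockout. Tal1 was not called with the compared groups alone (adjusted p = 0.0768). The higher genes of this list are not described here. Of 23 HOX genes tested 8 were higher and none lower. Without knockout library 2, 18 of 29 tested were higher and none lower, and without library 1, 1 of 23 was higher and 1 lower. Hoxd9 stood at 0.137 and 0.214 CPM in wild type and 7.02 and 1.02 in the knockout (4.49, adjusted p = 0.00507). The summed HOX level was 42.8 and 10.8 CPM in the knockout and 7.39 and 7.08 in wild type.

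Imprinted genes, expressed from 1 parental allele and tied to placental and fetal growth, moved strongly in both directions. Of 26 tested, 9 were higher and 6 lower (median 0.35). On log2(TPM + 1), where the median of all genes lay at -0.51, 6 of 25 were higher and 9 lower (median -0.06). Centred, 9 were higher and 5 lower (median 0.64). The neighbours H19 and Igf2 were higher together, H19 from 72.5 and 94.7 to 2210 and 1780 CPM (4.58, SE 0.24, adjusted p = 9.49e-05) and Igf2, the fetal growth factor gene, from 44.1 and 42.3 to 818 and 538 CPM (3.97, SE 0.23, adjusted p = 9.49e-05). Grb10, an adaptor that restrains insulin and IGF receptors, fell from 233 and 214 to 10.5 and 4.67 CPM (-4.89, SE 0.35, adjusted p = 0.000188). Peg10, a retrotransposon-derived placental gene, rose from 655 and 501 to 1890 and 1460 CPM (1.53, adjusted p = 0.00403; offset 2.81), Nnat from 7.52 and 9.7 to 107 and 46.7 (3.16, adjusted p = 0.0017), and Mest from 20.8 and 18.4 to 62.1 and 55.8 (1.59, adjusted p = 0.00232). Magel2 was lower (15.1 and 29.8 against 5.24 and 4.18 CPM; -2.25, adjusted p = 0.00297). Of 14 genes of IGF signalling 4 were higher, with Igfbp4, a binding protein gene, at 14.0 and 21.7 against 86.9 and 50.3 CPM (1.94, adjusted p = 0.00275), and 4 lower (1 with the offset). On log2(TPM + 1) neither Igfbp4 (adjusted p = 0.127) nor Peg10 (0.0669) was called.

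**Figure D4:**
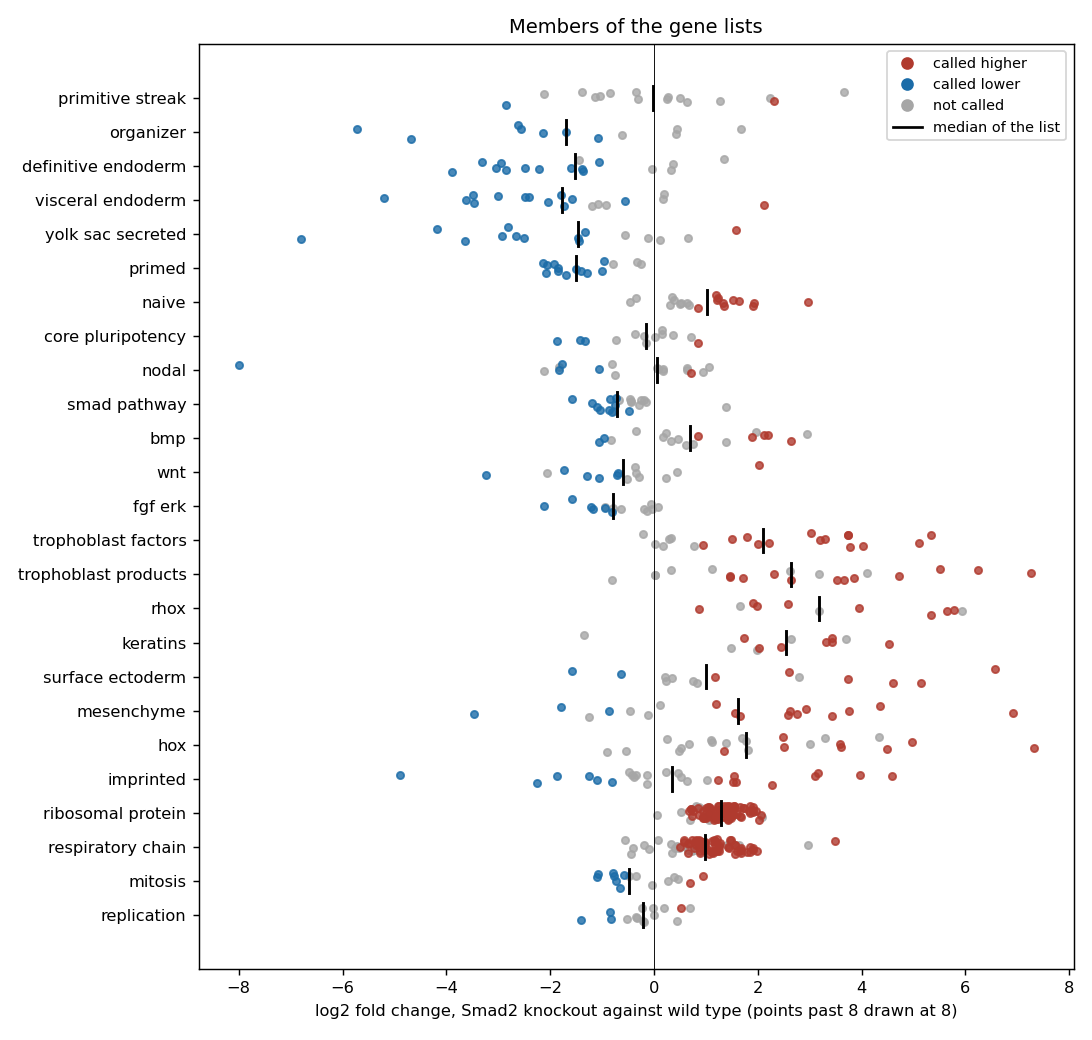
Log2 fold change of each tested member of 25 gene lists in the Smad2 knockout against wild type, with called genes in red (higher) and blue (lower), others in grey and the list's median as a black bar. Endoderm, organizer and primed epiblast members lie mostly to the left and trophoblast, Rhox and keratin members mostly to the right.

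Counts for housekeeping groups changed with the offset. Ribosomal protein genes (median length 673 bases) were called higher in 73 of 83 and lower in none, and respiratory chain genes (681 bases) in 68 of 88 and none. With the offset 28 and 26 were higher and none lower. Mitosis genes gave 2 higher and 7 lower calls of 15 and, with the offset, 3 and 0. Replication genes gave 1 and 3 of 15, and 0 and 0 with the offset. Of 20 hypoxia and glycolysis genes 6 were higher and none lower (median 0.50), and 9 and 0 with the offset. On log2(TPM + 1), where the median of all genes lay at -0.51, 1 was higher and 3 lower (median -0.11). Centred, 8 were higher and 1 lower (median 0.59). Vegfa was among the 6 higher genes (32.9 and 47.1 against 75.5 and 85.7 CPM, log2 fold change 1.01, adjusted p = 0.00758). It stood at 0.14 on log2(TPM + 1), not called. Of 14 p53 targets 3 were higher and 4 lower, and 9 and 1 with the offset, with Cdkn1a (p21) higher in both (39 and 55.7 against 117 and 83.0 CPM; 1.08, adjusted p = 0.00659), though not called on log2(TPM + 1) (adjusted p = 0.314).

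Among all genes whose higher group averaged 5 CPM or more, the 5 largest falls were Gm28036, Uty, Gm49388, Eif2s3y and Cer1, and the 5 largest rises were Gm44709, Rpl36a-ps3, Gm45733, Rhox9 and Rhox6. Gm28036, a protein-coding model on chromosome 2, stood at 94.8 and 58.5 CPM in wild type and had no count in the Smad2 knockout (at least 2170-fold lower), and it also had none in either day 0 library. Gm44709, an antisense model on chromosome 7, stood at 29.3 and 10.4 CPM in the knockout and had no count in wild type at day 4 (at least 539-fold higher), against 46.9 and 9.85 CPM at day 0. Gm45733 showed the same order, with 11.7 and 2.86 CPM in the knockout, 0.229 and 0.0238 in wild type and 23.9 and 4.42 at day 0. For these 3 models the Smad2 knockout and day 0 levels were on the same side of wild type at day 4. Rpl36a-ps3, a ribosomal protein pseudogene that can share reads with its parent gene, rested on knockout library 2 (0.212 and 16.4 CPM; adjusted p = 0.27 without it, 0.0842 and 0.0632 without either wild-type library, and 0.0511 with the offset). Gm49388 stood at 4.14 and 6.42 CPM in wild type with no count in the knockout (at least 148-fold lower), and was not called without either knockout library (adjusted p = 0.111 and 0.115).

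Among genes of at least 5 CPM the 5 with the largest excess of knockout library 1 over library 2 were T, Mixl1, Gm45507, Sprr2a2 and 1700047I17Rik2, and the 5 with the largest excess of library 2 were Rpl36a-ps3, Rn7s1, Ptges3-ps, Gm10259 and Gm10409. Of the latter 5, Rpl36a-ps3, Ptges3-ps and Gm10259 are processed pseudogenes and Rn7s1 is annotated as a miscellaneous RNA. Sprr2a2, of the small proline-rich family of cornified epithelia, stood at 31.7 and 0.32 CPM in the knockout and 1.33 and 1.55 in wild type. T headed the first of these rankings.

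The Smad2 knockout was then set directly against the other day 4 knockouts. Against the Smad3 knockout 6549 of 19470 genes (33.6%) were called, 3057 higher (15.7%) and 3492 lower (17.9%). Trophoblast factors were higher in the Smad2 knockout in 12 of 20 and lower in none, with Hand1 at 9.73 and 14.0 CPM in the Smad3 knockout (log2 difference 1.98, SE 0.37, adjusted p = 0.00499) and Rhox6 at 7.82 and 7.53. Cer1 stood at 3.13 and 2.74 CPM in the Smad3 knockout, and Foxa2 at 4.71 and 6.27 (-2.06, adjusted p = 0.0386). Of 15 yolk sac secreted genes 11 were called lower than in the Smad3 knockout and 1 higher, with Afp at 58.0 and 53.4 CPM in the Smad3 knockout (-4.58, adjusted p = 0.00123). Of the 16 streak genes 2 were higher and 1 lower than in the Smad3 knockout, T at 56.9 and 64.6 CPM there. Leaving out a Smad3 knockout library brought all calls down to 1898 or 2651.

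Against the double knockout 7715 genes (39.6%) were called in either direction, 3717 higher and 3998 lower. Of 16 streak genes 14 were called, all higher in the Smad2 knockout, T standing at 0.249 and 0.325 CPM in the double knockout, below the 0.79 CPM of knockout library 2. The summed level of the streak list was 288 CPM in Smad2 knockout library 1 and 50.9 in library 2. It was 29.4 and 24.1 CPM in the double knockout, so most of the excess lay in library 1. Of 15 primed epiblast genes 11 were called, 10 of them higher, with Fgf5 at 2.55 and 2.57 CPM in the double knockout. Of 20 trophoblast factors 11 were called, 10 lower in the Smad2 knockout and 1 higher, Cdx2, at 1.91 and 1.67 CPM in the double knockout, and Gata2 stood at 109 and 125 CPM there. Hand1 was at 60.6 and 62.7 CPM in the double knockout, with a log2 difference of -0.40 (SE 0.35, adjusted p = 0.385). Of 18 visceral endoderm genes 9 were called, all lower in the Smad2 knockout, with Cubn at 59.2 and 31.7 CPM, Dab2 at 58.9 and 38.3 and Gata6 at 10.7 and 7.45 in the double knockout. Cer1 was near 0 in both. Leaving out a double knockout library brought all calls down to 3693 or 3733. Both comparisons carry the length relation of the Smad2 knockout libraries, and their values against wild type share the wild-type libraries.

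**Figure D5:**
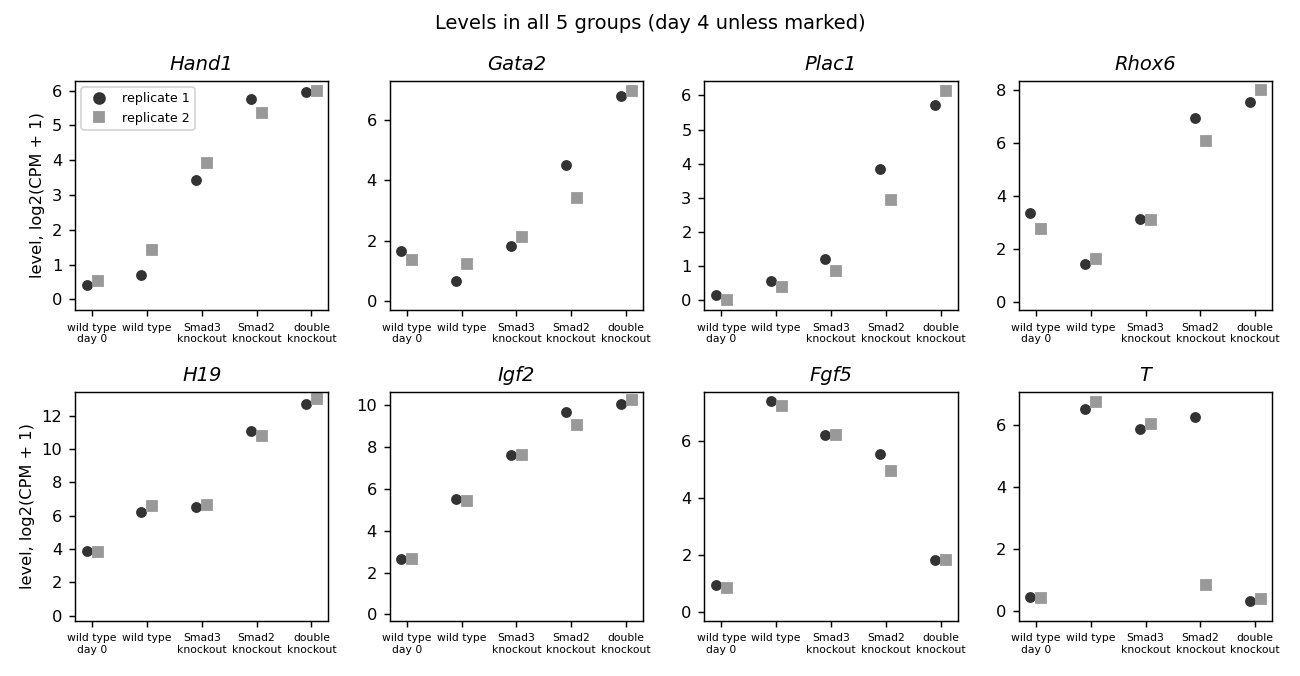
Levels of 8 genes on log2(CPM + 1) in all 10 RNA libraries, with replicate 1 as dark circles and replicate 2 as grey squares and 1 vertical axis per gene. Hand1, Gata2, Plac1, Rhox6 and H19 stand higher in the Smad2 knockout than in wild type and the Smad3 knockout, Fgf5 stands between wild type and the double knockout, and T separates the Smad2 knockout libraries.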

How the data were processed

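The series deposited, per RNA library, a table of RSEM gene values. Per the file headers each gives an expected count, which is an estimated count that need not be whole, a TPM and an FPKM for every gene. The deposited FPKM were not used. The deposited TPM entered alternatives as log2(TPM + 1) and log2(TPM + 0.1), for genes with a mean of at least 1 TPM. Per the submitters' processing notes, the tools included STAR, RSEM, HOMER, Bowtie2 and FastQC 0.11.5 and the build was mm10. The role of each, the annotation, strand setting and RSEM version are not given in the sources used here.

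Expected counts were rounded to whole numbers. Of 53379 genes, 20602 had no count in any library and 19470 passed edgeR's filterByExpr. Library totals ran from 35733249 to 53672980. All 10 libraries of the 5 groups entered 1 quasi-likelihood fit (edgeR 4.0.16, R 4.3.3, TMM factors), leaving 5 residual degrees of freedom, with a common biological coefficient of variation of 0.248. The standard error is the absolute log2 fold change divided by the square root of F. Adjusted p-values are Benjamini-Hochberg over the genes tested. Symbols and positions came from GENCODE M21 for mm10, which lacked 105 gene IDs. The length and GC offset was a smooth term per library (mgcv 1.9.3). On simulated counts for 19470 genes with 200 changed, the fit recovered 22% of the 2-fold changes and 96% of the 4-fold ones, 0 with the wrong sign, and made 11 false calls. These rates belong to counts with 200 changed genes, whereas 6904 genes were called here. Whether they carry over to counts with the length and GC relations of these libraries was not tested. Recovery was not tested separately for genes at low levels.

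The comparison, the 37 gene lists and the rule for named genes were chosen with earlier results of these data known. The rule named Smad2, Smad3, a panel of lineage genes, up to 3 called genes a list with at least 5 CPM and non-overlapping libraries plus 1 in the other direction, the 5 largest rises and falls, and the 5 genes most apart between the knockout libraries in each direction, 135 genes in all. A further 40 genes were chosen after their values were seen. Alternatives were DESeq2 1.42.0, limma 3.58.1 on TPM, other scalings and filters, blocks, the compared groups alone and each library left out. Fold changes of genes with no count in a group are given as bounds against 3 counts over the group, which cover counting error only.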

Additional observations from a re-analysis of the deposited data

How the results depend on the processing

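With 2 libraries a group, 1 library moved the counts. Leaving out each library in turn gave 4571 to 8864 genes called against wild type, 1898 to 4895 against the Smad3 knockout and 3693 to 6270 against the double knockout. Without knockout library 1 the count against wild type was 4571, without knockout library 2 5486, without wild-type library 1 5222 and without wild-type library 2 8864. With the compared groups alone 2461 genes were called against wild type. Genes described above that were then not called include Smad4 (edgeR adjusted p = 0.095), Tgfbr1 (0.0503), Acvr2a (0.0741), Gsc (0.0507) and Cdx1 (0.0711). The same held for Rhox5 (0.139), Perp (0.0559), Itga6 (0.181), Bmpr2 (0.0853), Vegfa (0.0595) and Cdkn1a (0.0564). The groups that share the estimate of spread differed in it. Past 4-fold on CPM + 1, 65 genes differed between the Smad2 knockout libraries and 128 between the wild-type day 4 libraries. The counts were 35 at day 0, 22 in the Smad3 knockout and 4 in the double knockout. Past 2-fold, 629 genes differed between the knockout libraries. Between the wild-type libraries 1526 did, 98 higher in library 1 and 1428 in library 2; Spearman's rho of that difference with GC content was 0.9 across 12610 genes, against -0.01 for the knockout pair. Where a library was left out, the lone library of its group was assumed to vary like the other groups. DESeq2 called 7254, 6871 and 7752 genes in the 3 comparisons.

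The share of calls that were higher depended on the scale. Against wild type it was 43.4% with TMM, 30.7 with library totals, 63.7 with the length and GC offset, 11.5 on log2(TPM + 1), 11.8 on log2(TPM + 0.1) and 62.1 on centred log2(TPM + 1), an alternative chosen after seeing the data. Against the Smad3 knockout the share was 46.7% with TMM, 22.6 with library totals, 68.1 with the offset, 7.4 and 7.3 on TPM and 64.2 centred. Against the double knockout it was 48.2%, 29.3, 61.9, 8.7, 8.9 and 64.4. The cause was not tested.

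Replicate numbers did not establish pairs, since the deviations of first libraries correlated with those of the knockout at 0.13 (wild type), 0.19 (Smad3 knockout) and -0.13 (double knockout). The replicate block gave 7206, 6774 and 7872 calls in the 3 comparisons, the block with the offset 5677 against wild type, and a block by submission, read from file names, 8088. The crossed pairing, chosen after seeing the data, gave 8569 calls against the double knockout.

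Of 147 named and called genes, 17 lost their call and 10 changed sign with the offset, 26 and 3 on log2(TPM + 1), 35 lost it with the compared groups alone, 6 with library totals, 22 and 23 without knockout library 1 or 2, and 11 and 10 without wild-type library 1 or 2. With the offset, alone and then with the replicate block, the signs turned for Smad3 (0.15, 0.15), Tgfbr1 (0.10, 0.09), Acvr2a (0.21, 0.21), Rhox5 (-0.02, -0.03), Itga6 (0.02, 0.02), Bmpr2 (0.76, 0.75), Flt1 (0.45, 0.45), Tet1 (0.31, 0.25), Kif11 (0.10, 0.10), Cenpf (0.33, 0.33), Mesp1 (-0.62, -1.13) and Pou5f1 (-0.20, -0.20). Rspo3 turned with the offset (0.27), and 1700047I17Rik2 (-0.16) and Rn7s1 (-0.10) with block and offset. On log2(TPM + 1) and log2(TPM + 0.1) they turned for Mesp1 (-0.43, -1.41), Pou5f1 (-0.32, -0.32), Sox2 (-0.57, -0.57), Gdf3 (-0.04, -0.05), Fdft1 (-0.15, -0.15), Gins1 (-0.17, -0.17), Esrrb (-0.34, -0.37), Epcam (-0.34, -0.34), 1700047I17Rik2 (-0.55, -1.76) and Rn7s1 (-0.52, -2.03). With library totals Sox2 (-0.04) and 1700047I17Rik2 (-0.05) turned, and 1700047I17Rik2 also with the replicate block (-1.50) and the submission block (-2.36). Leaving out 1 library at a time, the sign also turned for Mesp1 (-4.53 to 1.62, lowest without knockout library 1), Sprr2a2 (-2.16 to 4.46, knockout library 1), 1700047I17Rik2 (-11.0 to 1.55, knockout library 1; -0.61 without wild-type library 2), Gm10409 (-11.13, without knockout library 2, to 0.19), Rn7s1 (-8.71 to 3.25, knockout library 2), Evx1 (-4.26 to 0.62), Rspo3 (-5.36 to 0.63), Fgf8 (-4.21 to 0.35), Esrrb (-0.47 to 1.30), Cldn6 (-0.16 to 0.20), Foxh1 (-1.14 to 0.12), Sox2 (-0.06 to 0.34), Pou5f1 (-0.00 to 0.96) and Prl3d1 (0.00 to 5.17). The cause of these reversals was not tested.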
